A study of Mus musculus with 11 samples.

Results

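The adrenergic receptors measured here were Adra1a, Adra1b, Adra1d, Adra2a, Adra2b, Adra2c, Adrb1 and Adrb3, taken as every probe that the array's own annotation names for one of these 8 genes. They are 8 of the 36413 gene names on the array and were covered by 12 of its 55681 probes, of which 11 were detected. The comparison was between aortas of old male C57BL/6 mice given nitrate (sodium nitrate, 1 g/L in the drinking water for 8 weeks, n = 5) and aortas of old male C57BL/6 mice without nitrate (n = 6), all aged 20 months, with 1 mouse on each array. The control labels give no treatment of their own and mark those arrays as a renewed analysis of samples from an earlier series, whereas the study's methods describe sodium chloride for the control mice. The treatment text deposited with the samples describes nitrate for every mouse, controls included, so the groups here follow the source labels, which name the supplement only for the nitrate arrays. The tissue was whole descending aorta, flushed and cleaned of surrounding fat, so each value is a mixture of smooth muscle, endothelium, adventitia and whatever fat or nerve remained. In such a mixture, fewer cells of a type and less RNA per cell cannot be told apart.

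Adrenergic receptors are G protein-coupled receptors for noradrenaline, released from sympathetic nerve endings, and for adrenaline from the adrenal medulla. The alpha 1 receptors act through Gq and phospholipase C, raise calcium in smooth muscle and contract arteries. The alpha 2 receptors act through Gi, lower cAMP, restrain noradrenaline release from nerve endings and, on endothelium, can promote release of nitric oxide. The beta receptors act through Gs and raise cAMP, which relaxes smooth muscle, and the beta 3 receptor is best known from fat cells, where it starts lipolysis and heat production.

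Every receptor probe is 60 bases long. The first 30 bases of the probes for the pair of receptors with higher signal after nitrate are shown because neither gene has a second probe. The Adra2a probe lies at chr19:54123363-54123422 and the Adra2c probe at chr5:35624269-35624328, both on the plus strand of mm9, the build of the array files.
Adra2a probe, bases 1 to 30: ctgatttcacgagagaaaaactaaatgtca
Adra2c probe, bases 1 to 30: tgacttcctatgacctgaaaaaggcatctg

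The 250 bases before the annotated start of the same pair of genes are shown because both hold the letters CACGTG. They are RefSeq sequence of GRCm38.p6, plus strand, at chr19:54045009-54045258 for Adra2a and chr5:35278316-35278565 for Adra2c, a different build from that of the probes. Capitals mark CACGTG, the E-box that basic helix-loop-helix factors can bind, and TATAAA, the core of a promoter element that places the start of transcription.
Adra2a promoter: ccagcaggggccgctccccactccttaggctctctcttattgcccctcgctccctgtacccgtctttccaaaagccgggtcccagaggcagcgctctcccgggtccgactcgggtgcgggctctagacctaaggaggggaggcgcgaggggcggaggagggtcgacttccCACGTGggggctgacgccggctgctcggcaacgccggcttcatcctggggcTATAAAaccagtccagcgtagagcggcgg
Adra2c promoter: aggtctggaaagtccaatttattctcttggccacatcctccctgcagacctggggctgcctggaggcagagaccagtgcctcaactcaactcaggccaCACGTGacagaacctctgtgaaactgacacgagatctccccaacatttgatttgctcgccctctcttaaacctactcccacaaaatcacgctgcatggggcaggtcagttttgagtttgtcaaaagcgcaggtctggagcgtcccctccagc
In Adra2a, CACGTG began 80 bases and TATAAA 29 bases before the start, and in Adra2c CACGTG began 152 bases before it. RefSeq windows were at hand for 5 of the 8 receptors (Adra1b, Adra2a, Adra2b, Adra2c and Adrb1; 6 windows), and 2 of the 6 held CACGTG, 1 held TATAAA and 0 held TGACGTCA, the cAMP response element. Over 32851 windows of the same length from 27025 genes, 6.02% held CACGTG, 12.4% TATAAA and 1.55% TGACGTCA on either strand (TATAAA overlaps neither of the others, and CACGTG and TGACGTCA read the same on both strands). The motifs were picked after these sequences and the array values had been seen, and the match is a description of letters, not of a bound site.

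Of the 8 receptors, 4 passed both thresholds of the study, an unadjusted P below 0.05 in limma's moderated test and a change of more than 1.2-fold. Adra1a and Adrb3 were lower after nitrate, and Adra2a and Adra2c were higher. Of these, Adra2a met the detection rule through the nitrate arrays alone. Over all 18294 gene names with a detected probe, taking the brightest probe of each, 8.89% passed the same thresholds, 4.62% lower and 4.27% higher, and over all detected probes 9% did, 4.85% lower and 4.16% higher. The median difference, nitrate minus control on the log2 scale, was −0.09 over the 8 receptors and 0.02 over all names. After Benjamini-Hochberg adjustment over the 23632 detected probes, none of the receptor probes had an adjusted P below 0.05 in limma, the lowest being 0.151 for Adra1a. Over all detected probes 0.0127% (3 probes) did.

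**Figure D1:**
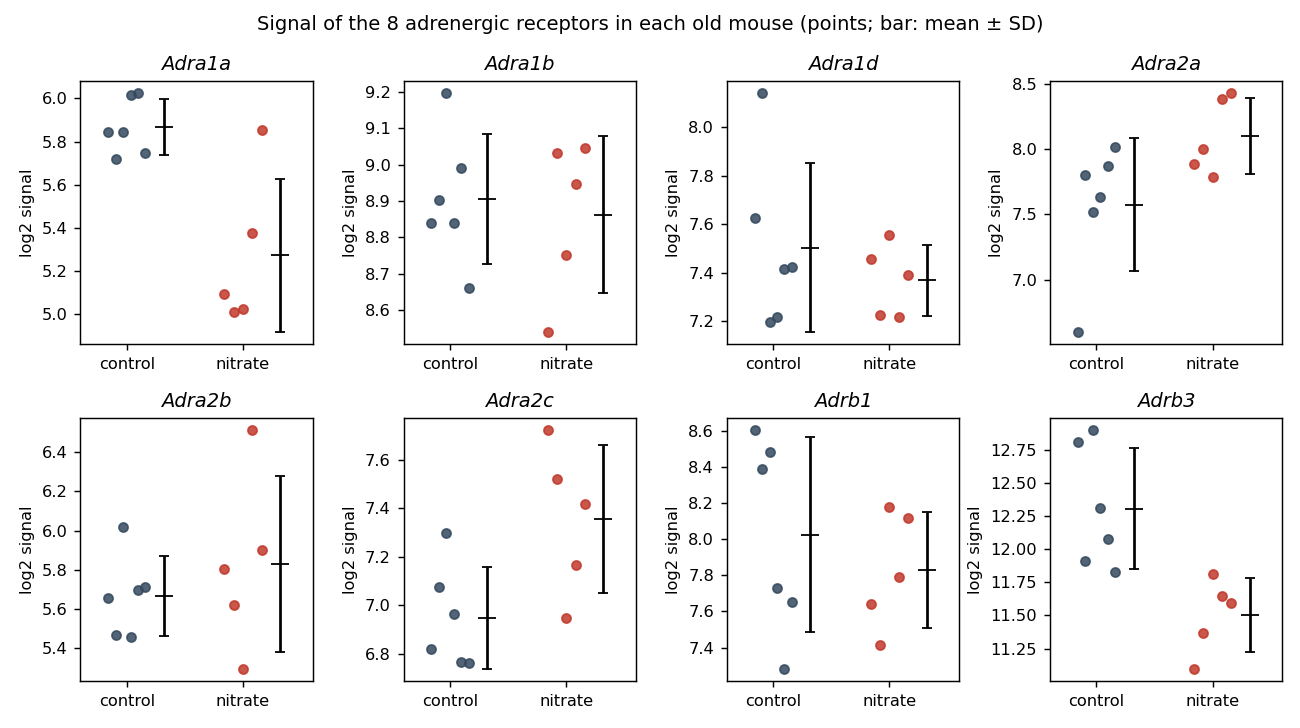
Log2 signal of the brightest probe of each receptor (vertical axis, a scale of its own in each panel) in the 6 control and 5 nitrate treated mice; points are mice and the bars are mean ± SD. The nitrate treated mice all lie below the control mice for Adrb3, 4 of 5 do for Adra1a, and the groups overlap for the others.

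Adra1a, a Gq-coupled receptor that contracts resistance arteries, gave the smallest limma P of the family. Its log2 signal in the nitrate treated mice 1 to 5 was 5.10, 5.01, 5.03, 5.38 and 5.85. In the control mice the lowest was 5.72, the median 5.84 and the highest 6.03. Thus 4 of the 5 nitrate treated mice lay below every control mouse, and nitrate 5 lay among the controls. The means were 5.27 ± 0.36 (SD, n = 5) and 5.87 ± 0.13 (SD, n = 6), a difference of −0.59 (SE 0.14, 95% interval −0.91 to −0.28), or 1.51-fold lower (limma P = 0.00140, adjusted P = 0.151, rank 220 of 23632 detected probes by P, two-sided exact permutation test over the 462 divisions of the mice, P = 0.0108). This was a dim probe, with processed signals of 28.7 to 77.1 before normalization, and with normexp background correction its difference was −0.24 (limma adjusted P = 0.219), past the P threshold but under the fold threshold. Its single probe lies at chr14:67352013-67352072 (mm9).

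Adra1b and Adra1d, the other alpha 1 receptors, did not pass the thresholds with either of their probes. The brighter Adra1b probe read 8.54, 9.03, 8.75, 8.95 and 9.05 in the nitrate treated mice and between 8.66 and 9.20 in the controls, a difference of −0.04 (95% interval −0.29 to 0.21, exact permutation P = 0.725). The second Adra1b probe differed by 0.32 (95% interval −0.09 to 0.73, exact permutation P = 0.158), and the deviations of both probes from their group means had a correlation of 0.04 over the 11 mice. They thus gave no common reading of Adra1b, and leaving out control 5 brought the second probe past the thresholds (0.41, limma adjusted P = 0.325). The difference of the brighter probe was 0.04 without nitrate 1 and 0.02 without control 3, and the mean of both probes differed by 0.14. For Adra1d, the receptor through which noradrenaline contracts the mouse aorta, the nitrate values were 7.45, 7.22, 7.55, 7.22 and 7.39 and the control values ran from 7.20 to 8.14, with a difference of −0.14 (95% interval −0.47 to 0.20, exact permutation P = 0.517). Its second probe differed by −0.10 (95% interval −0.47 to 0.26, exact permutation P = 0.593) and followed the first from mouse to mouse (r = 0.91 over 11 mice, as deviations from group means). Control 2 held the highest value of Adra1d on both probes, and without that mouse the differences were −0.00785 and 0.00704. The brighter Adra1d probe met the detection rule through the controls alone, in which it was higher (found and above background on 5 of 6 control and 3 of 5 nitrate arrays).

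Adra2a, the alpha 2 receptor best known for limiting noradrenaline release, had a higher mean after nitrate and passed the thresholds narrowly. Its log2 signal was 7.89, 8.00, 7.79, 8.38 and 8.43 in the nitrate treated mice. In the controls the lowest was 6.60, the median 7.72 and the highest 8.02. Nitrate 4 and 5 lay above every control, and the other 3 lay within the control range. The difference of 0.53 (SE 0.23, 95% interval 0.02 to 1.03), from means of 8.10 ± 0.29 (SD, n = 5) and 7.57 ± 0.51 (SD, n = 6), was 1.44-fold (limma P = 0.0413, adjusted P = 0.332, exact permutation P = 0.0541). Control 1 decided much of its size, since without that mouse the difference was 0.33 (limma adjusted P = 0.399), still past both thresholds. Without nitrate 2, 4 or 5 or control 3 or 4 the unadjusted P exceeded the threshold, with differences of 0.44 to 0.55. On control 1 the mean of the adipocyte markers described below was also the highest of all mice (0.50), that of the striated muscle markers the highest of the controls (2.49) and that of the smooth muscle markers the lowest of all (−0.39, each as log2 relative to all mice). The part of the muscle markers in the Adra2a value was not tested, and the fit with the adipocyte markers is given below. The scanner software called the Adra2a spot above background on every array, yet recorded it as found on only 2 of the 6 control arrays, against 5 of 5 nitrate arrays. The probe thus entered the test through the group in which it was higher. With a rule of signal above background alone, which it met in both groups, it passed the thresholds (limma adjusted P = 0.342). Without any detection rule the same difference no longer passed the P threshold (limma adjusted P = 0.612), and a rule of detection on all 11 arrays left the probe out.

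Adra2c, which also restrains noradrenaline release and takes part in cold-induced constriction of skin vessels, rose. It read 7.72, 7.52, 6.95, 7.17 and 7.42 in the nitrate treated mice. In the controls the lowest was 6.76, the median 6.89 and the highest 7.30. Nitrate 1, 2 and 5 lay above every control. The means were 7.36 ± 0.30 (SD, n = 5) and 6.95 ± 0.21 (SD, n = 6), and the difference of 0.41 (SE 0.14, 95% interval 0.09 to 0.72) was 1.33-fold (limma P = 0.0150, adjusted P = 0.267, exact permutation P = 0.0325). Leaving out any single mouse kept Adra2c past the thresholds, with differences of 0.32 to 0.51. Although both alpha 2 receptors were higher, they did not vary together from mouse to mouse, with a correlation of −0.00055 between their deviations from the group means. Adra2b, the third alpha 2 receptor and a vasoconstrictor, read 5.81, 5.62, 5.29, 6.52 and 5.90 after nitrate and 5.45 to 6.02 in the controls, a difference of 0.16 (95% interval −0.24 to 0.56, exact permutation P = 0.487). Nitrate 4 gave the highest and nitrate 3 the lowest value of Adra2b, and the difference was −0.01 without nitrate 4 and 0.29 without nitrate 3, so it had no stable direction.

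Adrb3 showed the largest difference of the family and was the only one of the 8 receptors whose brightest probe had no overlap between the groups, which held for 2.94% of all names and 2.75% of all detected probes. Its log2 signal in the nitrate treated mice was 11.10, 11.37, 11.81, 11.65 and 11.60. In the controls the lowest was 11.82, the median 12.19 and the highest 12.90. The highest nitrate value and the lowest control value thus nearly met. The means of 11.50 ± 0.28 (SD, n = 5) and 12.31 ± 0.46 (SD, n = 6) differed by −0.80 (SE 0.21, 95% interval −1.26 to −0.34), or 1.74-fold (limma P = 0.00250, adjusted P = 0.167, exact permutation P = 0.00866). The second Adrb3 probe, annotated to the same transcript, read 8.09, 8.53, 8.81, 8.06 and 8.31 after nitrate, with 8.71 the lowest, 9.20 the median and 10.06 the highest control value. It lay 1.90-fold lower (difference −0.93, 95% interval −1.45 to −0.41, limma P = 0.00209, adjusted P = 0.161, exact permutation P = 0.0108), with 4 of 5 nitrate treated mice below every control. The brighter probe lies at chr8:28336268-28336327 and the second at chr8:28337864-28337923 (mm9, minus strand). No single mouse decided either probe, since the difference stayed between −0.90 and −0.68 for the first and between −1.04 and −0.78 for the second when each was left out.

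Adrb1, the main beta receptor of heart muscle, did not pass the thresholds. The nitrate values were 7.64, 7.41, 8.18, 7.79 and 8.12 and the control values ran from 7.28 to 8.61, with a difference of −0.20 (95% interval −0.73 to 0.34, exact permutation P = 0.478). The controls were in 2 sets on this gene, with control 1, 2 and 3 above every nitrate treated mouse and control 4, 5 and 6 among or below them. With the adipocyte markers described below as a covariate the Adrb1 difference was 0.38, the opposite direction. Its other probe was well above background on 2 of 5 nitrate and 5 of 6 control arrays. It was both found and above background on only 0 nitrate and 3 control arrays, and did not meet the detection rule. In the fit over all probes that one differed by −0.34 (95% interval −1.15 to 0.47, exact permutation P = 0.390).

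**Figure D2:**
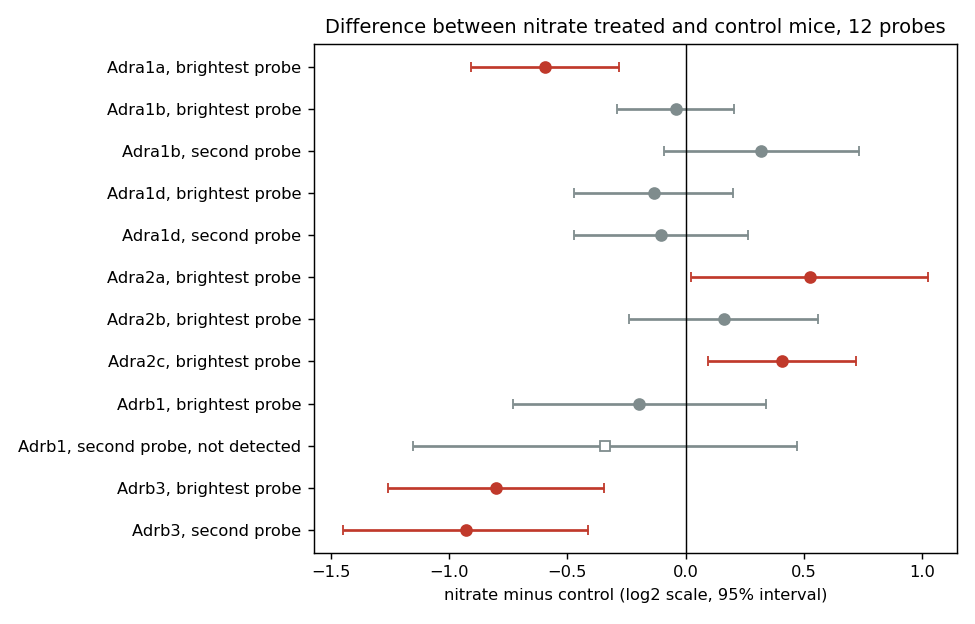
Difference between nitrate treated (n = 5) and control (n = 6) mice for each of the 12 receptor probes on the log2 scale (horizontal axis), with 95% intervals from limma; red marks probes past both thresholds and the open square the probe that was not detected. Both Adrb3 probes and Adra1a lie to the left of 0 and Adra2a and Adra2c to the right, whereas the intervals of the other probes cross 0.

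The arrays came from 3 slides that each held both groups, so each difference could be read within a slide. Adrb3 was lower after nitrate on all 3, by −1.13, −0.26 and −0.87 on slides 1, 2 and 3 on the log2 scale, and so was its second probe, by −1.32, −0.14 and −1.10. Adra1a was also lower on all 3, by −0.73, −0.86 and −0.32. Adra2c was higher by 0.68, 0.08 and 0.26. Adra2a differed by 0.74, −0.04 and 0.71 and so showed no rise on slide 2, which held 1 nitrate and 2 control arrays. With slide as a block in the fit the same 4 receptors passed. Each of the 6 control arrays occupied the third column of a slide, a place taken by none of the 5 nitrate arrays, hence array position and treatment cannot be told apart.

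Adrb3 marks fat cells, and therefore the markers of the cell types in an aortic sample were read beside the receptors. Of 20 adipocyte markers, all detected, 10 fell (4.62% of all names did), none rose and 19 had a lower mean, with a median difference of −0.34 against 0.02 over all names. Among them were Retn (resistin, −0.84), Slc2a4 (the insulin-responsive glucose transporter, −0.59) and Pparg (the master regulator of fat cell formation, −0.57). None of the 20 had an adjusted P below 0.05 in limma, the lowest being 0.121 for Acvr1c. The mean of the 20 markers ran from −0.46 to 0.01 in the nitrate treated mice and from −0.11 to 0.50 in the controls, relative to all mice. Without nitrate 1 the number that fell was 5. Of 12 brown fat markers 1 fell and 1 rose, against 8.89% of all names past the thresholds in either direction, with a median difference of −0.15.

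From mouse to mouse, the brighter Adrb3 probe followed the adipocyte markers. Taking each mouse as its deviation from its group mean, Pearson's r was 0.906 and Spearman's rho 0.927 over the 11 mice (two-sided permutation within groups, P = 0.00109 and 0.000450, and 0.00872 and 0.00360 after Benjamini-Hochberg adjustment over the 8 receptors). That adjustment covers the adipocyte list alone, although Pearson correlations of this kind were computed for all 6 pathway and 9 marker lists. Leaving out nitrate 4 and control 1, r was 0.934. In these mice the marker mean, as a deviation from the group mean, lay farthest from the median deviation. The second Adrb3 probe followed less closely, with r = 0.71 and rho = 0.645 (permutation P = 0.0307 and 0.0522), and its r was 0.984 over the control mice and −0.00813 over the nitrate treated mice. Adrb1 came next (r = 0.680, rho = 0.664, permutation P = 0.0452 and 0.0508, adjusted 0.181 and 0.203), and the other 6 receptors ran from −0.484 for Adra2a to 0.540 for Adra1b, with adjusted permutation P of 0.267 or more. For Adra2a, r was 0.668 over the nitrate treated mice and −0.895 over the controls, and for Adra2c −0.728 and 0.400. No other brightest probe changed sign between the groups. Without nitrate 4 and control 1, r was −0.255 for Adra2a and 0.140 for Adra2c. With deviations taken within slide and group, which leaves fewer independent differences, r was 0.976 and 0.908 for the Adrb3 probes, but also −0.964 and −0.960 for the Adra1d probes and −0.842 for Adra2a, so a value of that size was not particular to Adrb3. All of these values come from the same arrays, and the adipocyte list does not contain Adrb3. With the adipocyte mean as a covariate, the nitrate difference was −0.15 for Adrb3 (limma adjusted P = 0.775), −0.35 for its second probe (adjusted P = 0.706), 0.14 for Adra2a (adjusted P = 0.904) and 0.35 for Adra2c (adjusted P = 0.655), none of them past the thresholds. Adra1a was at −0.47 in that fit (limma adjusted P = 0.564), the only one of the 8 receptors past the thresholds. The adipocyte mean itself had a correlation of −0.71 with treatment, so this fit divides a shared difference between both terms. It also takes the same slope in both groups, whereas the signs for Adra2a and Adra2c were opposite. Its values for those receptors therefore cannot be read as a common relation to the markers.

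**Figure D3:**
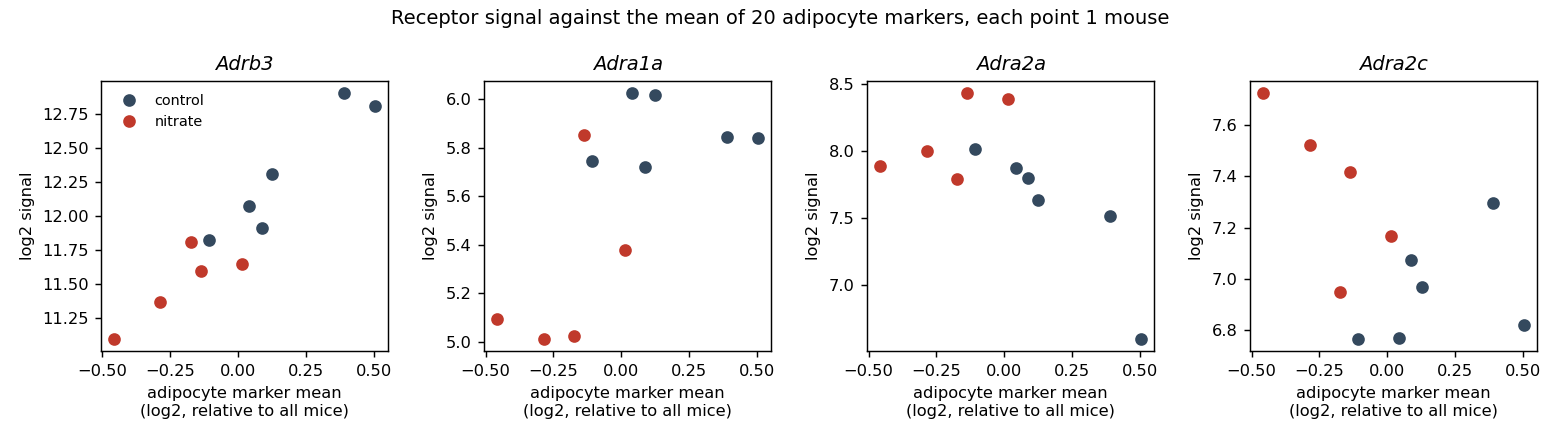
Log2 signal of Adrb3, Adra1a, Adra2a and Adra2c (vertical axes) against the mean of 20 adipocyte markers (horizontal axis, log2 relative to all mice), with each point 1 mouse. The brighter Adrb3 probe is highest in control 1 and 3, which have the highest marker means, and lowest in nitrate 1, which has the lowest.

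The other cell types were read in the same way. Of 10 smooth muscle markers, 1 rose (Lmod1, an actin-binding protein of the contractile apparatus, 0.31) and the median difference was 0.15. Over all names 8.89% passed in either direction, so 1 of 10 is near the background. That count was 0 without nitrate 1 or 2 and 2 without nitrate 4 or without control 2, 4, 5 or 6. Of 10 endothelial markers 1 fell, again near that share (median −0.10; 2 passed without nitrate 5 or control 2), and of 6 fibroblast markers none passed (median 0.18; 3 passed without nitrate 1 and 1 without control 3 or 5). Of 12 sympathetic neuron markers only Snap25 and Uchl1 were detected. Th and Dbh, the noradrenaline-synthesizing enzymes that define these nerves, were not. The cell bodies of these nerves lie in ganglia outside the vessel wall. None of the 9 detected striated muscle markers passed (2 without control 1), but their mean reached 2.88 on nitrate 4 and 2.49 on control 1 against −1.46 to 0.49 on the other arrays. None of 3 Schwann cell and 6 leukocyte genes passed. Receptors also correlated with marker lists other than the adipocyte list, as deviations from group means. The largest values were −0.837 for Adra1a with sympathetic neuron, 0.725 for Adrb1 with endothelial and 0.679 for Adra1a with brown fat markers. For Adrb3 they ran from −0.652 with smooth muscle to 0.522 with endothelial markers. The part of these cell types in the receptor values was not tested.

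The rest of the adrenergic pathway was read from 6 lists with 63 entries. In noradrenaline handling, 5 of 10 genes were detected and 1 fell (4.62% of all names did), Slc22a3 (the extraneuronal uptake carrier, −0.52), while the median difference was 0.14. That count was 0 without nitrate 1, 2 or 3 and without control 1, 2 or 4. The neuronal transporter Slc6a2 was not detected, nor were Ddc and Slc18a1. Of 9 G protein alpha subunits, 7 were detected and none passed (median difference 0.07; 1 passed without nitrate 5).

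Among the enzymes that these G proteins control, 10 of 13 were detected, and 2 rose with no overlap between the groups, where 4.27% of all names passed as higher and 2.94% had no overlap. Adcy7, an adenylyl cyclase, was higher by 0.51 (limma P = 0.000559, adjusted P = 0.118, exact permutation P = 0.00216, the smallest this design allows). Plcb4, a phospholipase C that Gq activates, was higher by 0.45 (limma P = 0.00335, adjusted P = 0.182, exact permutation P = 0.00216). The median difference of that list was 0.09. One step further down, 2 of 12 PKA subunits and cAMP phosphodiesterases fell, Pde3b (−0.49) and Pde4d (−0.38), both of which break down cAMP, where 4.62% of all names fell (median 0.00488; 4 passed without control 2).

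Of 11 receptor kinases, arrestins and RGS proteins, which switch the receptors or their G proteins off, Adrbk2 (a receptor kinase, −0.43) fell and none rose, a share near the 8.89% of all names past the thresholds (median −0.04; 2 passed without control 5). Of 8 lipolysis effectors, 3 fell (4.62% of all names did), namely Lipe (hormone-sensitive lipase, −0.51), Aqp7 (the glycerol channel, −0.44) and Pnpla2 (adipose triglyceride lipase, −0.31), and all 8 had a lower mean (median −0.27). Without nitrate 1 only 1 of them passed. Of these genes, Lipe, Aqp7, Plin1 and Fabp4 are also on the adipocyte list. None of the genes named from the 6 lists had an adjusted P below 0.05 in limma.

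**Figure D4:**
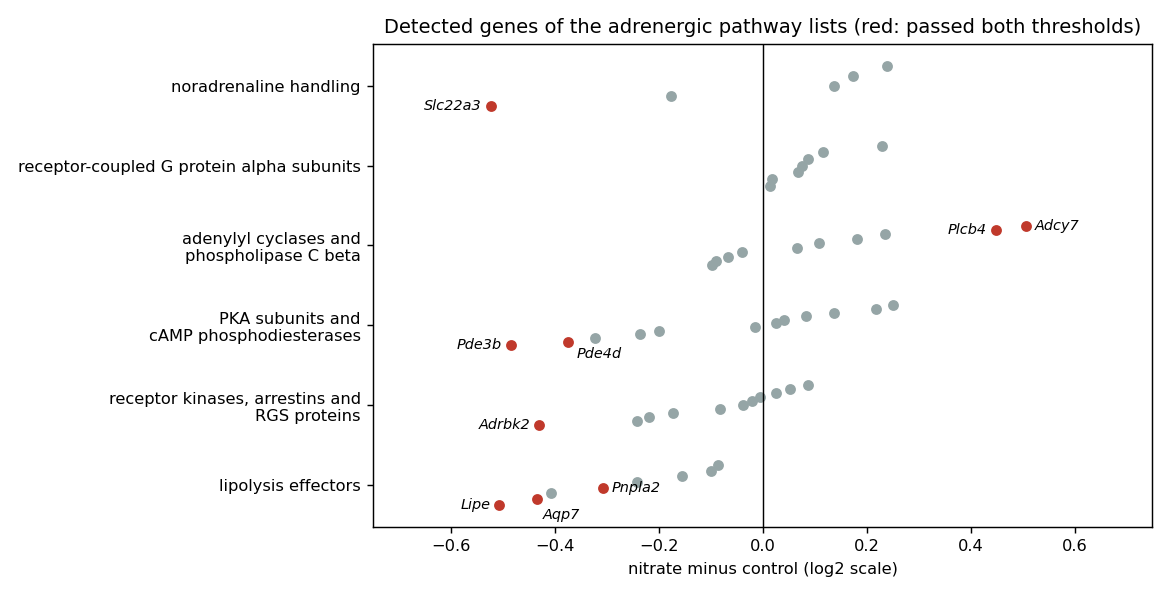
Difference between nitrate treated and control mice (horizontal axis, log2 scale) for each detected gene of the 6 pathway lists, with red points and names for genes past both thresholds. Lipolysis effectors all lie to the left of 0 and G protein alpha subunits all to the right, the latter with no gene past the thresholds.

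The genes whose signal followed each receptor most closely were sought among 13741 detected genes with a symbol, by the correlation of deviations from the group means over the 11 mice. For Adrb3 they were Gpt (0.97), Gm6100 (0.95) and Ankrd57 (0.95). For Adra1a they were Acot1 (0.95), Cpb2 (0.94) and Armc1 (0.93), and for Adra2a Csnk1g3 (0.97), Rnf20 (0.97) and Oxct1 (0.95). Adra2c was followed most closely by Pnma3 (0.91), Thbd (0.90) and Adamts5 (0.89), and Adrb1 by Tmem134 (0.96), Ddx59 (0.93) and Fam173b (0.93). These lists shared no gene. For the remaining receptors they were Pkp3 (0.96), Rab7l1 (0.95) and Donson (0.94) for Adra1b, Lrrc68 (0.89), Actr8 (0.88) and Hlx (0.87) for Adra1d, and Fli1 (0.90), Zfp161 (0.90) and Tex261 (0.90) for Adra2b. With 11 points and this many genes, correlations of such size are the top of a long ranking and carry no P. Among the receptors themselves, the highest such correlation was that of Adrb1 with Adrb3 (0.65) and the lowest that of Adra2a with Adrb3 (−0.55), while Adra1a and Adrb3, both lower after nitrate, had a correlation of 0.17.

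**Figure D5:**
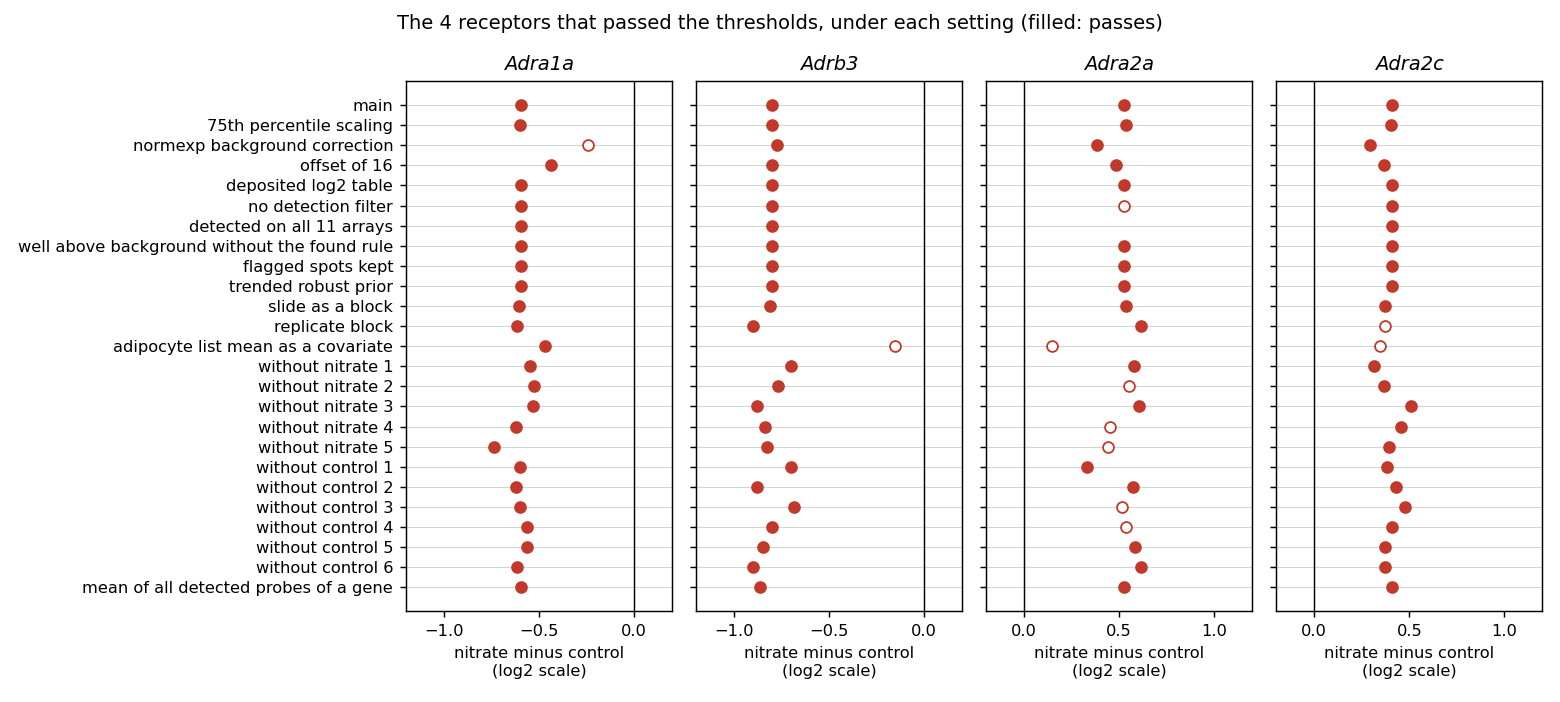
Difference between nitrate treated and control mice (horizontal axis, log2 scale) for the 4 receptors past both thresholds under each processing setting and with each mouse left out (rows); filled points passed both thresholds. Every point keeps its side of 0, Adra2a has the most open points, and Adrb3 has 1, with the adipocyte mean as a covariate.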

How the data were processed

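RNA of the descending aorta of 11 mice was hybridised to 1-colour Agilent mouse arrays. The scanner files deposited by the authors hold a processed signal for each spot, a background-subtracted intensity that is not normalized between arrays, with flags for outliers and for signal above background. The authors also deposited a log2 table, quantile normalized and centred for each probe on its median over samples. Here processed signals under 1 were set to 1, and the values were log2 transformed, averaged over the spots of a probe without outlier-flagged spots, and quantile normalized. Apart from the choice of a gene's brightest probe, signal levels were not compared between probes.

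Detection required, in one group or the other, 5 or more arrays with the spot recorded as found and well above background. Differences were tested with limma 3.58.1 in R 4.3.3 over all 23632 detected probes, without covariates, at unadjusted P below 0.05 and a change above 1.2-fold, as in the study. Exact permutation tests were two-sided, over 462 divisions of the mice. A gene stands for its brightest detected probe, and both probes are given for receptors. Named list genes were those past the thresholds with the largest differences. Detected probes numbered 24760 to 28655 per array, and 0 spots were saturated. The number of arrays limits the precision. One gene of the pathway lists is not reported here. The members and lists were chosen with earlier results of these data known. The fit was tested on simulated data. The study describes 6 mice in each group. The samples at hand held 5 nitrate arrays, and all 11 arrays were used, so the remaining nitrate mouse was not analysed here.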

Additional observations from a re-analysis of the deposited data

Results flagged for a closer look

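Of 54 groups of values examined (27 measures, each in both treatment groups), 5 held a mouse whose gap to its neighbour took up an unusually large share of the group's range, where chance gives about 1 in 20. Adra2a on control 1 was low, with a gap of 0.647 of the range of the controls. The mean of the adenylyl cyclases and phospholipase C beta was low on control 1 (0.637 of the range), and so was that of the smooth muscle markers (0.725). The striated muscle mean was high on control 1 (0.654). The fibroblast mean was low on nitrate 1 (0.746).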

How the results depend on the processing

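Adra1b, Adra1d, Adra2b and Adrb1 stayed outside the thresholds under every setting run on their brightest probe, although with the adipocyte mean as a covariate Adra1b (0.15) and Adrb1 (0.38) turned direction. Adra1a was no longer past the fold threshold with normexp background correction (−0.24, limma adjusted P = 0.219). Adra2a was 0.53 (limma adjusted P = 0.612) without a detection filter and 0.14 (adjusted P = 0.904) with the adipocyte mean as a covariate, and 0.33 to 0.61 with 1 mouse left out. Adra2c was 0.35 (limma adjusted P = 0.655) and Adrb3 −0.15 (adjusted P = 0.775) with that covariate, under which 1 of 8 receptors passed. All other settings gave 3 or 4, where detection on all 11 arrays left the brightest probes of 6 receptors, without Adra1d and Adra2a. Replicate numbers did not pair the mice (correlations of −0.14 to 0.18). As a replicate block they gave 0.37 for Adra2c (limma adjusted P = 0.417), 3 of 8 receptors and 2433 of 23632 probes. Control 6, which has no partner, adds nothing to that fit, and leaving it out without a block gave the same 0.37, with Adra2c past the thresholds, and 2424 probes. The block changed no other receptor's call and left 0 genes of noradrenaline handling past the thresholds. Nitrate 2 correlated best with the control of its own number and the other 4 nitrate treated mice did not. Over all probes 2128 passed, against 1219 with normexp correction (782 lower and 437 higher, against 1146 and 982) and 3224 of 55681 without the detection filter (1509 and 1715). The cause of these shifts was not tested. The Adra1a probe, with processed signals of 28.7 to 77.1, gave the one receptor call that the background correction ended.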
